A study of Mus musculus with 6 samples.

Results

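The ATP-binding cassette (ABC) transporter genes were followed in bone marrow LSK cells that carried, or lacked, a YFP mark of Cdh5-driven Cre activity. A gene was counted when its symbol began with Abc, a subfamily letter from a to g and a number, and when a probe with that symbol alone was on the array. This gave 48 genes of the 22180 genes measured. The rule used names only and no expression value, but it was chosen with earlier results of these data known. Each of the 48 had 1 such probe, so the choice of the brightest probe per gene was not needed.

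LSK cells lack mature lineage markers and carry Sca-1 and Kit, a gate enriched for blood stem cells and early progenitors. Both populations came from C57Bl6 mice with the same alleles, a tamoxifen-inducible Cdh5-Cre/ERT2 transgene and a YFP reporter at Rosa 26. The Cre was driven by the promoter of Cdh5, the gene of VE-cadherin, so YFP marks a cell in which that promoter was active at induction or a descendant of such a cell. Tamoxifen was given on postnatal days 1, 2 and 3, and marrow was taken on postnatal day 27, 26 days after the first dose. There were 3 YFP-positive and 3 YFP-negative LSK samples, 1 array each, and nothing in the labels says that they came from separate animals, so each p-value covers only how far these samples spread, and that spread may be technical. The values are log2 expression as deposited, differences are YFP-positive minus YFP-negative, and a gene was called at a limma p under 0.05 after Benjamini-Hochberg adjustment over all 22180 genes.

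ABC proteins bind and split ATP, and most use it to move a substrate across a membrane. The A and G subfamilies hold lipid and sterol exporters, the B and C subfamilies drug, peptide and conjugate exporters, mitochondrial carriers and the regulatory subunits of potassium channels, and the D subfamily transporters of peroxisomes and lysosomes. The E and F subfamilies have no membrane-spanning part and act on ribosomes and translation. In blood, ABC efflux pumps are known from the side population, the stem cells that expel the Hoechst dye, and in vessels from the endothelial barriers that pump drugs back into the blood.

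The library-wide facts that touch these genes are few. Array medians over all 41345 probes lay between 3.62 and 3.68. No detection calls were used, so whether a level near or below these medians is above background is not known. Of 24 endothelial markers, 22 were higher in YFP-positive cells, with a summed signal (log2 of the sum) of 14.44, 14.52 and 13.96 on YFP-positive and 10.70, 10.74 and 10.09 on YFP-negative arrays. Of 13 macrophage markers 2, Vcam1 and Mertk, were higher, 0 lower and 11 did not pass, with a median difference of -0.12. Of the 13, 4 lay below the array median on all 6 arrays. The higher ones numbered 1 without YFP-positive replicate 1 or 2 or YFP-negative replicate 2 or 3. Of 20 broad leukocyte markers, 3 were lower and 0 higher, with summed signals of 11.77, 11.87 and 13.32 on YFP-positive and 13.16, 13.24 and 13.14 on YFP-negative arrays, and without YFP-positive replicate 3 the lower ones numbered 12 (and 1 when any single YFP-negative array was left out). Of 11 stem and progenitor genes of the gate 7 were lower, against 4 without YFP-negative replicate 2 and 1 with the unmoderated model. Kit, the gate's own receptor, measured 6.98, 6.56 and 7.06 in YFP-positive and 7.57, 7.96 and 7.74 in YFP-negative samples (adjusted p = 0.0496), a call that ended when any single array was left out (0.0598 to 0.148). Ptprc, which encodes CD45, measured 6.52, 6.95 and 9.52 in YFP-positive against 9.33, 9.23 and 9.37 in YFP-negative samples, so that YFP-positive replicate 3 stood apart from the other YFP-positive arrays and at the YFP-negative level. Ptprc did not pass over all arrays (adjusted p = 0.353) but differed by -2.57 without that array (adjusted p = 0.00256). Beside every result below, the endothelial markers moved with the populations, and their part in it was not tested. In such bulk samples, fewer cells of a type and less RNA per cell cannot be told apart.

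Of the 48 ABC genes, 4 were higher in YFP-positive cells, 1 was lower and 43 did not pass. The 4 that rose were Abcc9, Abcg2, Abca1 and Abcb1a, and the gene that fell was Abce1. The share called was 10.4% of the members, against 4.84% of all genes tested, with 8.33% against 2.88% for higher calls and 2.08% against 1.96% for lower ones. The median difference over the 48 genes was 0.04, against -0.0073 over all genes, and 34 of the 48 (70.8%) had a 95% interval between -1 and 1, against 72.7% of all genes. At an unadjusted p under 0.05 there were 8 members (16.7%), against 17.2% of all genes. The groups did not overlap for 7 members that were higher (14.6%, against 10.8% of all genes) and 6 that were lower (12.5%, against 11.9%). Apart from the share called, the members lay near the background on these measures. That share rests on few genes, which do not set the family apart from the background. 20 of the 48 (41.7%) lay below the array median on all 6 arrays, against 33.7% of all genes. These include most A subfamily genes, 11 of 16. Without YFP-positive replicate 3, 3 members rose and 0 fell (before adjustment, 5 higher and 1 lower had a p under 0.05), where 5.34% of all genes were called. Without any 1 of the other arrays Abcc9 and Abcg2 rose, and Abce1 fell in the fit without YFP-positive replicate 2.

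**Figure D1:**
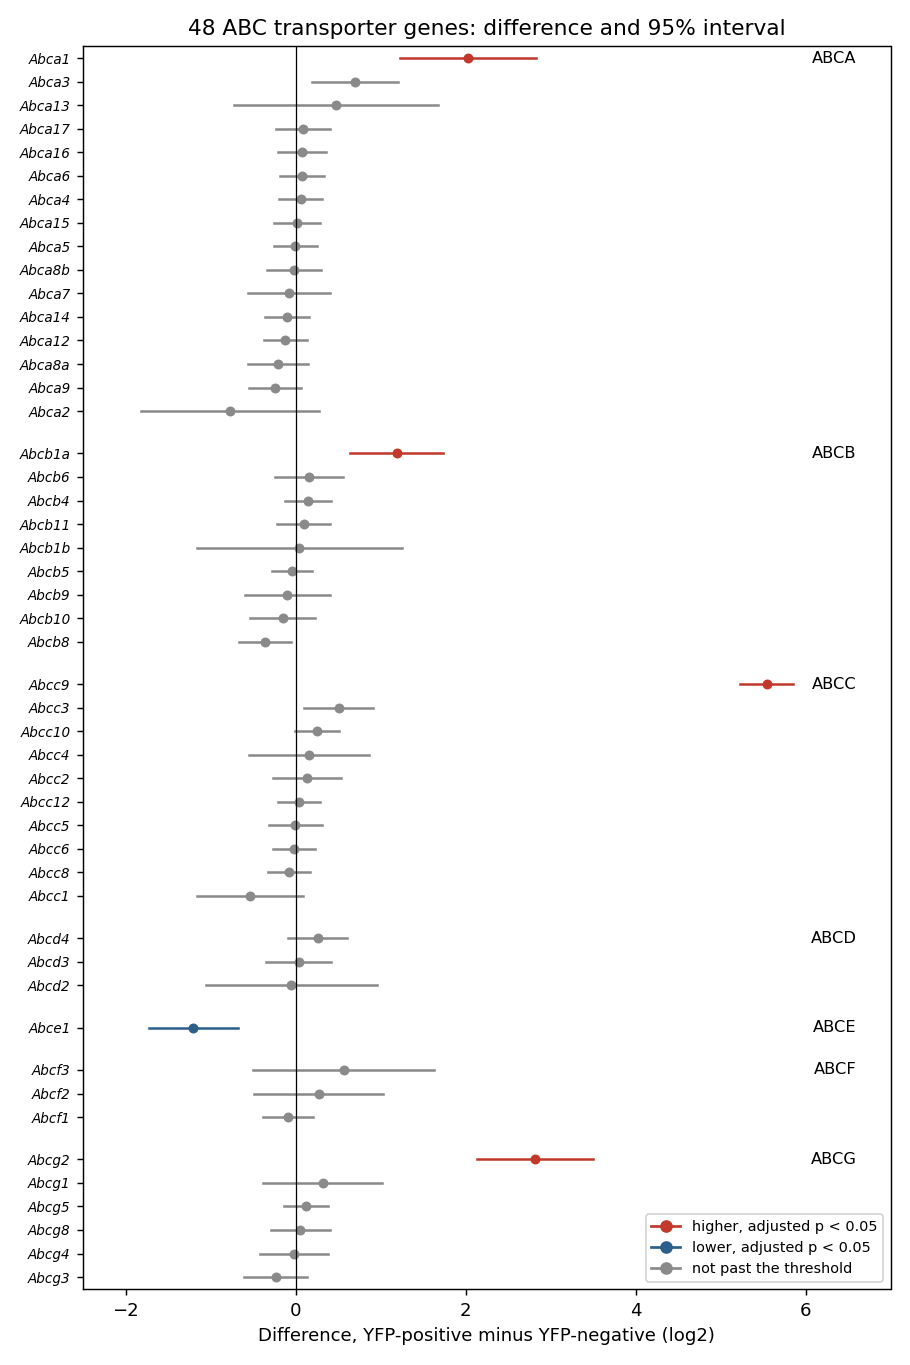
Difference between YFP-positive and YFP-negative LSK cells on the x axis (log2) with its 95% interval from limma, for the 48 ABC genes on the y axis, grouped by subfamily. Abcc9 stands at 5.54, Abcg2 at 2.82, Abca1 at 2.03 and Abcb1a at 1.19, Abce1 at -1.21, and most other points lie near 0.

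Regulatory subunits of potassium channels gave the largest difference in the family. Abcc9 encodes a sulphonylurea receptor, the regulatory subunit of ATP-sensitive potassium (K-ATP) channels. Such channels open when cellular ATP falls and can alter the electrical activity of heart, vessel wall and pancreatic cells. Abcc9 measured 10.54, 10.40 and 10.23 in YFP-positive samples, against 4.72, 4.94 and 4.88 in YFP-negative samples. All YFP-positive arrays were high and close together, all YFP-negative arrays low, and the groups were 5.29 apart at their nearest points. The difference was 5.54 ± 0.13 (SE), or 46.6-fold, with an adjusted p = 4.3e-05, the 4th smallest p of all genes and the 30th largest rise. It stayed called whichever single array was left out (adjusted p = 0.000177 to 0.000954). The window around its annotated start is shown because it is the family's clearest change. It lies at chr6:142702225-142702524 on the minus strand of GRCm38.p6 (RefSeq), from 250 bases before the start to 50 after it. Capitals mark GC boxes (GGGCGG), E-boxes (CACGTG), cyclic AMP response elements (TGACGTCA), TATA motifs (TATAAA), the MEF2 motif CTAAAAATA and the nuclear receptor repeat DR4, each searched on both strands.
Abcc9: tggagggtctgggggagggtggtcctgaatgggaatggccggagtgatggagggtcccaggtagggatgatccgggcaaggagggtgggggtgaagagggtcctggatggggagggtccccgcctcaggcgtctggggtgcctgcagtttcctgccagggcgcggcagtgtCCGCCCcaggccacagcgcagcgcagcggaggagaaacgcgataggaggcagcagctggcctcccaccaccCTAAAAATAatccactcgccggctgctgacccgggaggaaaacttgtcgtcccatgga
This window held 1 GC box, found in 35.7% of all 32851 such windows, and 1 MEF2 motif, found in 0.517% of them. No marked motif overlapped another here or in the windows below, and a match is a description of letters, not a site.

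K-ATP channels need a pore, and each pore gene lies next to its receptor gene in the RefSeq table. Kcnj8, the pore gene beside Abcc9 on chromosome 6, measured 9.71, 10.56 and 9.13 in YFP-positive samples against 3.03, 3.73 and 3.42 in YFP-negative samples. It was 84.7-fold higher (difference 6.40 ± 0.39, adjusted p = 0.00086), with YFP-negative values near or below the array medians. The other pair did not pass. Abcc8, the receptor subunit of pancreatic beta cells, measured 3.51, 3.43 and 3.34 in YFP-positive and 3.47, 3.50 and 3.56 in YFP-negative samples, below the array median on all 6 arrays (adjusted p = 0.785). Its neighbour on chromosome 7, the pore gene Kcnj11, measured 4.61, 4.39 and 4.27 in YFP-positive and 4.62, 4.17 and 4.33 in YFP-negative samples (adjusted p = 0.933), with overlapping groups. Outside the heart, Abcc9 and Kcnj8 are known from the mural cells of vessels, smooth muscle and pericytes. Among 11 stromal and mural markers limma called 0 (4 had p under 0.05 before adjustment, and the unmoderated model called 0). That model called 180 of all 22180 genes, so 0 from it in a short list, here or below, says little. Without YFP-positive replicate 1, limma called 1 of the 11 higher. Pdgfrb, a pericyte receptor, measured 3.71 ± 0.019 in YFP-positive and 4.01 ± 0.13 in YFP-negative samples (SD, n = 3 each), with an adjusted p = 0.238. Rgs5, also of pericytes, measured 3.53 ± 0.37 in YFP-positive and 3.12 ± 0.15 in YFP-negative samples, and Acta2, smooth muscle actin, 5.86 ± 0.53 and 5.72 ± 0.22. Of the marrow stroma genes, Lepr measured 3.72, 6.02 and 4.62 in YFP-positive and 3.005, 2.84 and 2.90 in YFP-negative samples (adjusted p = 0.143). Cxcl12 measured 5.18, 6.82 and 7.63 in YFP-positive and 4.25, 4.87 and 5.04 in YFP-negative samples (adjusted p = 0.2). Both were higher on every YFP-positive array without passing, and the part of stromal RNA in the Abcc9 and Kcnj8 values was not tested. The summed signal of the stromal list ranged from 7.72 to 8.73 in YFP-positive and from 7.58 to 7.79 in YFP-negative samples.

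**Figure D2:**
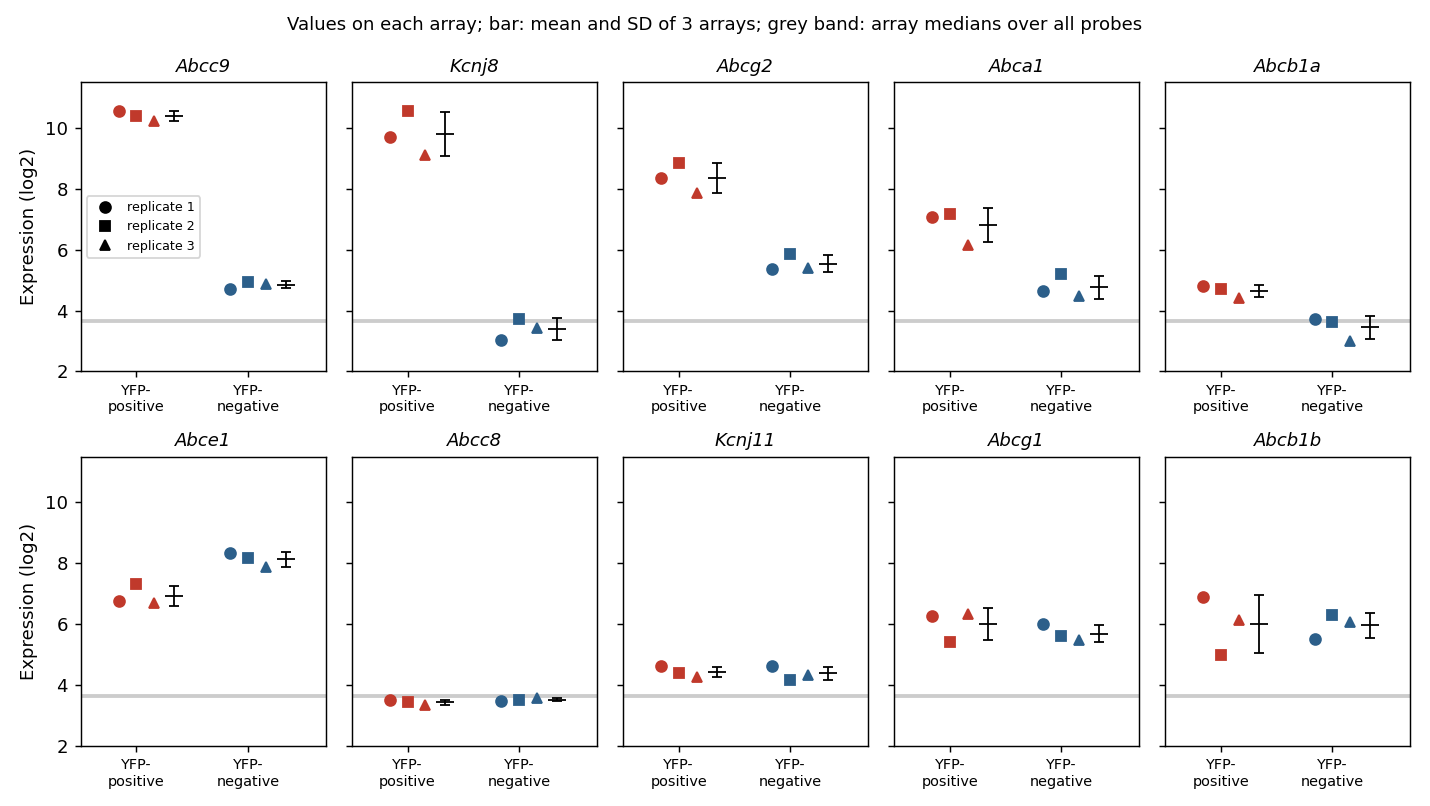
Log2 expression (y axis) on each of the 3 YFP-positive and 3 YFP-negative arrays for the called ABC genes, their paralogs and the K-ATP pore genes, with mean and SD beside the points and the range of array medians as a grey band. Abcc9 and Kcnj8 lie above 9 on every YFP-positive array and below 5 on every YFP-negative array, while Abcc8, Kcnj11, Abcg1 and Abcb1b overlap.

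Efflux pumps of drugs and conjugates held 2 of the 4 genes that rose, of 14 measured, with 0 lower and a median difference of 0.07. Over all genes 2.88% were called higher and 1.96% lower, and the group and list counts below stand beside these shares. The lists were chosen with earlier results of these data known, so their counts are a description and no independent support. Abcg2, the breast cancer resistance protein, is the pump behind the side population of blood stem cells and also stands on the blood side of barrier endothelium. It measured 8.35, 8.86 and 7.86 in YFP-positive samples, against 5.36, 5.85 and 5.40 in YFP-negative samples. The groups did not overlap and were 2.01 apart. The difference was 2.82 ± 0.28, or 7.04-fold (adjusted p = 0.00513), and it was called in each fit that left out 1 array (adjusted p = 0.00427 to 0.031). RefSeq gives 3 start windows for Abcg2 on the plus strand of chromosome 6 in GRCm38.p6, at chr6:58584283-58584582, chr6:58596422-58596721 and chr6:58640296-58640595. All are shown because the value does not say which start was used.
Abcg2 window 1: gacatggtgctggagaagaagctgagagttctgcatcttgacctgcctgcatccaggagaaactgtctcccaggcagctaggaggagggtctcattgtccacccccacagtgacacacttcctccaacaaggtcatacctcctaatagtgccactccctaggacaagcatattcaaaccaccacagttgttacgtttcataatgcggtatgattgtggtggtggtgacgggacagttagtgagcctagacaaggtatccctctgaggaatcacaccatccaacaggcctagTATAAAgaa
Abcg2 window 2: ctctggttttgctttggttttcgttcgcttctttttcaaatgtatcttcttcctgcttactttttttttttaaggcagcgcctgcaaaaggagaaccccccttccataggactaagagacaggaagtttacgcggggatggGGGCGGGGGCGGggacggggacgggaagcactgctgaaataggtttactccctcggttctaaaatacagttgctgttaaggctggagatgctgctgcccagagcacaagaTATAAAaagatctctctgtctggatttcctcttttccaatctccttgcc
Abcg2 window 3: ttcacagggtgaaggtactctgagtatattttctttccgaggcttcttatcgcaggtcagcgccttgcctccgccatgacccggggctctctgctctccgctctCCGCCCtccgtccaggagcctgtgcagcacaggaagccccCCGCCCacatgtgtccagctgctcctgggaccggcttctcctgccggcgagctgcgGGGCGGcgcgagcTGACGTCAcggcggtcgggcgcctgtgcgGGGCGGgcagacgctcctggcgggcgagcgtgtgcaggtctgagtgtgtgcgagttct
The first held a TATA motif, which lies after the annotated start, the second 2 GC boxes and a TATA motif just after the start, and the third 4 GC boxes and a cyclic AMP response element. The TATA motif was in 13.6% and the cyclic AMP response element in 1.79% of all windows.

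Mice have a pair of P-glycoprotein genes, Abcb1a and Abcb1b, side by side on chromosome 5. Abcb1a, the form of the blood-brain barrier, measured 4.81, 4.70 and 4.41 in YFP-positive samples, against 3.72, 3.62 and 3.004 in YFP-negative samples, 2.28-fold higher (difference 1.19 ± 0.22, adjusted p = 0.0418). The groups did not overlap, and the YFP-negative values lay near or below the array medians. Abcb1a was no longer called when any single array was left out (adjusted p = 0.0529 to 0.126). Abcb1b measured 6.90, 4.996 and 6.12 in YFP-positive and 5.51, 6.30 and 6.07 in YFP-negative samples. Its YFP-positive arrays spanned 1.90, the widest span of any member within a population, and enclosed the YFP-negative ones (difference 0.044 ± 0.49, 95% interval -1.16 to 1.25, adjusted p = 0.98). These are closely related copies, whether their probes share signal was not tested, and the difference between their responses was not tested. Abcb4, the third gene of that cluster and a phospholipid exporter of liver, differed by 0.14 ± 0.11 (adjusted p = 0.626). The Abcb1a window, at chr5:8566841-8567140 on the plus strand of GRCm38.p6, is shown for comparison with the other genes that rose, and held 0 of the motifs searched.
Abcb1a: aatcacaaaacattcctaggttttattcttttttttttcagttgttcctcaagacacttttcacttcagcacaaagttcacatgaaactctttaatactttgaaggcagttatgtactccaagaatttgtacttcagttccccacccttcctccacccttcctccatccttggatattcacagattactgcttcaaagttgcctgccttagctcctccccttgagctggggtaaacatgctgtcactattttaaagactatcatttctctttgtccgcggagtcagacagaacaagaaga

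Of the other exporters in this group, Abcc1, which exports glutathione conjugates and leukotrienes, measured 5.51, 5.38 and 5.19 in YFP-positive and 6.45, 5.57 and 5.67 in YFP-negative samples. Its YFP-positive values were all lower, but the gap was 0.064 and it did not pass (difference -0.54 ± 0.25, adjusted p = 0.363). Abcc3, an exporter of glucuronides, measured 3.53, 3.88 and 3.995 in YFP-positive against 3.41, 3.09 and 3.38 in YFP-negative samples, higher on every YFP-positive array, and did not pass (adjusted p = 0.187). Abcc4, an exporter of cyclic nucleotides and prostanoids, differed by 0.15 ± 0.29 with overlapping groups (95% interval -0.55 to 0.86). Abcc5, which also exports cyclic nucleotides, differed by -0.0051 ± 0.13 (95% interval -0.32 to 0.31). Abcg3 lay below the array median on all 6 arrays, with means of 2.68 ± 0.077 (YFP-positive) and 2.91 ± 0.25 (YFP-negative; SD, n = 3 each).

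Lipid exporters held 1 gene that rose of 21 measured, 0 that fell and a median difference of 0.06. With 2.88% of all genes called higher, 1 call does not set this group apart. Abca1 loads cholesterol and phospholipid onto apolipoprotein A-I and is the classical target of the oxysterol-sensing LXR receptors. It measured 7.07, 7.17 and 6.16 in YFP-positive samples, against 4.63, 5.20 and 4.47 in YFP-negative samples. The groups did not overlap, and YFP-positive replicate 3 was the lowest of its group. The difference was 2.03 ± 0.33, or 4.09-fold (adjusted p = 0.0253). Without that array the difference was 2.35 (adjusted p = 0.0096), and without any 1 of the other 5 arrays the call was lost (highest adjusted p = 0.0993). The window of Abca1, at chr4:53159846-53160145 on the minus strand of GRCm38.p6, is shown because LXR receptors bind DR4 repeats.
Abca1: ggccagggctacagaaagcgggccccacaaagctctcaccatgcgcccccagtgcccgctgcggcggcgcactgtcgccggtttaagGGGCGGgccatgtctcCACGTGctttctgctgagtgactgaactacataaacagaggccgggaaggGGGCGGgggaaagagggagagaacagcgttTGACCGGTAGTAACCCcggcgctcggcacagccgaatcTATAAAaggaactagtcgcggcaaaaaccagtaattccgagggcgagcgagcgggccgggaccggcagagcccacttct
It held 2 GC boxes, an E-box, a TATA motif and a match to the DR4 pattern. That pattern was found in 0.094% of all windows and in the windows of no other of the 38 members that had one. Its second repeat was fixed but for the first base, so this does not give how rare DR4 repeats are in general. The E-box was found in 7.15% of all windows.

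Abcg1, which passes cholesterol on to high-density lipoprotein and is another LXR target, measured 6.27, 5.41 and 6.32 in YFP-positive and 6.001, 5.59 and 5.47 in YFP-negative samples. The groups overlapped, and the difference was 0.32 ± 0.29 (95% interval -0.38 to 1.01, adjusted p = 0.681). Abca3, the lipid pump of lung surfactant granules, measured 4.43, 4.53 and 3.91 in YFP-positive against 3.38, 3.82 and 3.56 in YFP-negative samples, higher on every YFP-positive array by a gap of 0.089, and did not pass (adjusted p = 0.145). Abca2, an endosomal lipid transporter, measured 4.42, 4.31 and 4.54 in YFP-positive and 4.84, 6.21 and 4.54 in YFP-negative samples. Its difference of -0.77 ± 0.43 rested on YFP-negative replicate 2, without which it was -0.27. Abca7, linked to phospholipid export and phagocytosis, differed by -0.077 ± 0.20, and Abcg4, a sterol exporter, by -0.023 ± 0.16. The sterol pumps Abcg5 and Abcg8, which lie side by side, were below the array median on all 6 arrays, as were the neighbours Abca8b, Abca8a, Abca9, Abca6 and Abca5 on chromosome 11, none of which had a p under 0.05 even before adjustment.

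Genes that work with these lipid exporters, from a list of cholesterol efflux and LXR genes, were higher in 3 of 21 measured cases and lower in 0, with a median of 0.17. Without YFP-negative replicate 1 or 2 the higher ones numbered 1, and without YFP-positive replicate 1 or 2 they numbered 2. Without YFP-positive replicate 3, 3 were higher and 1 was lower. Pparg, a fatty acid-sensing nuclear receptor, measured 10.31, 10.43 and 9.80 in YFP-positive against 2.99, 3.31 and 4.27 in YFP-negative samples (adjusted p = 0.000558). Apoe, an apolipoprotein that takes up exported cholesterol, measured 6.74, 6.87 and 6.37 in YFP-positive against 5.22, 5.40 and 5.56 in YFP-negative samples, 2.4-fold higher (adjusted p = 0.0155). Leaving out YFP-positive replicate 1, YFP-negative replicate 1 or YFP-negative replicate 2 ended the call (at most 0.0643). Scarb1, the receptor of high-density lipoprotein, measured 7.13, 6.09 and 6.11 in YFP-positive against 4.85, 4.69 and 5.09 in YFP-negative samples, 2.96-fold higher (adjusted p = 0.0473), and of the 6 fits with 5 arrays it was called in the one without YFP-positive replicate 1 (0.0319 to 0.15). The LXR gene Nr1h3 measured 3.60 ± 0.25 in YFP-positive and 3.28 ± 0.18 in YFP-negative samples (SD, n = 3 each, adjusted p = 0.42). The LXR targets Srebf1 and Mylip differed by 0.47 ± 0.21 and 1.87 ± 0.49 and did not pass (adjusted p = 0.347 and 0.107). Srebf2, the activator of sterol synthesis, measured 5.46, 5.02 and 6.55 in YFP-positive and 7.59, 7.68 and 6.88 in YFP-negative samples and did not pass (adjusted p = 0.0962).

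**Figure D3:**
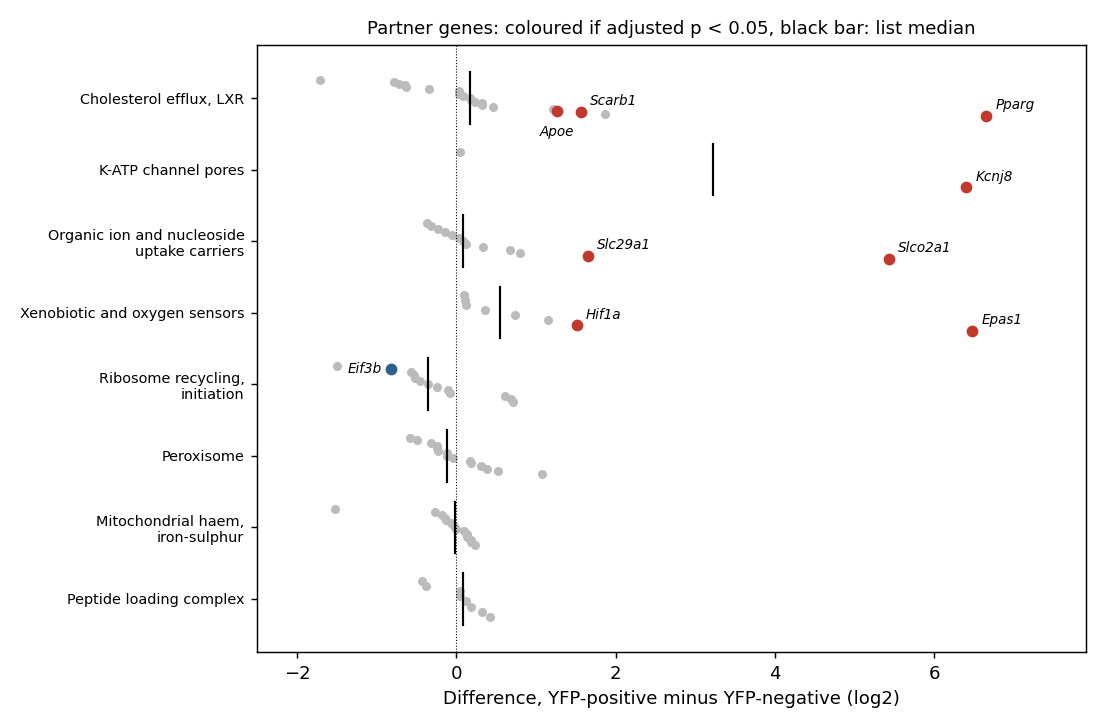
Difference between YFP-positive and YFP-negative LSK cells on the x axis (log2) for genes that work with ABC proteins, 1 point a gene, by list on the y axis, with the list median as a black bar. Called genes are coloured and named. Pparg, Kcnj8, Slco2a1 and Epas1 lie above 5, and Eif3b is the called gene below 0.

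The ribosome-acting ABC proteins held the gene that fell. Abce1 splits ribosomes after termination so that their subunits can be used again. It measured 6.75, 7.32 and 6.70 in YFP-positive samples, against 8.34, 8.18 and 7.87 in YFP-negative samples. Every YFP-positive array was lower, with a gap of 0.56 between the groups. The difference was -1.21 ± 0.21, or 2.31-fold lower (adjusted p = 0.0348). It was called without YFP-positive replicate 2 and lost its call without each of the other 5 arrays (0.0287 to 0.12). Its window, at chr8:79711691-79711990 on the minus strand of GRCm38.p6, held a cyclic AMP response element just before the start, shown beside that of the third Abcg2 window. These were the 2 members with that motif.
Abce1: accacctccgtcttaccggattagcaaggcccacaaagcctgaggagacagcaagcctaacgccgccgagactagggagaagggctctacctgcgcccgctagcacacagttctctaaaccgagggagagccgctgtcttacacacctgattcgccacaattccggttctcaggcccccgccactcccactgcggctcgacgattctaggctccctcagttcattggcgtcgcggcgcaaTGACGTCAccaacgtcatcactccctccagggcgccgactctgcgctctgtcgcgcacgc
The F subfamily did not pass. Abcf1, which acts in translation initiation, differed by -0.09 ± 0.12, Abcf2 by 0.27 ± 0.31 and Abcf3 by 0.56 ± 0.44. Abcf2 was low on YFP-negative replicate 3, at 5.92 against 6.77 and 7.16 on the other YFP-negative arrays. Of 13 measured genes of ribosome recycling and initiation, 1 was lower, 0 higher and 12 did not pass, with a median of -0.35. Eif3b, a subunit of an initiation factor, measured 7.65, 7.58 and 7.67 in YFP-positive against 8.40, 8.67 and 8.28 in YFP-negative samples (difference -0.81 ± 0.13, adjusted p = 0.0262). With 5 arrays it was called in 1 fit of 6, the one without YFP-negative replicate 3 (0.0469 to 0.0878). Without YFP-positive replicate 3, 1 gene of this list was lower, but that gene was not Eif3b, whose adjusted p was 0.0546. Without YFP-positive replicate 1 or 2 or YFP-negative replicate 1 or 2, 0 genes of this list were lower. The release factor genes Gspt1 and Etf1 differed by -1.50 ± 0.36 and -0.57 ± 0.20, and Pelo, which rescues stalled ribosomes with Abce1, by 0.69 ± 0.26. None of the 3 passed (adjusted p = 0.0837, 0.223 and 0.252).

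Mitochondrial, peroxisomal and lysosomal ABC genes gave 0 calls among 7 measured with limma, against 4.84% called of all genes. So few genes cannot set the group apart. The unmoderated model called 0, and before adjustment 1 had p under 0.05. That 1 was Abcb8, a carrier of the inner mitochondrial membrane, which measured 4.09, 4.17 and 3.90 in YFP-positive against 4.54, 4.30 and 4.41 in YFP-negative samples, lower on every YFP-positive array (difference -0.36 ± 0.13, adjusted p = 0.202). Abcb10, which serves haem synthesis, differed by -0.15 ± 0.16, and Abcb6, a porphyrin transporter, by 0.16 ± 0.16. Of 14 measured genes of mitochondrial haem and iron-sulphur synthesis limma called 0 (1 had p under 0.05 before adjustment, and the unmoderated model called 0). That was Hscb, an iron-sulphur co-chaperone, which measured 5.74, 5.97 and 7.09 in YFP-positive against 7.46, 7.99 and 7.92 in YFP-negative samples (adjusted p = 0.089) and was called without YFP-positive replicate 3 (adjusted p = 0.0104). Abcd3, the main ABC protein of the peroxisome membrane, measured 5.47, 5.74 and 5.98 in YFP-positive and 5.76, 5.57 and 5.77 in YFP-negative samples, and Abcd4, which moves cobalamin out of lysosomes, differed by 0.26 ± 0.14. Abcb9, a lysosomal peptide transporter, differed by -0.098 ± 0.20. Of 15 measured peroxisome genes limma called 0 (3 had p under 0.05 before adjustment, and the unmoderated model called 0), and Pex7, an import receptor, had the smallest p (difference -0.58 ± 0.14, adjusted p = 0.0813). Without YFP-positive replicate 1, limma called 1 of the 15 higher.

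ABC proteins whose symbols lie outside the naming rule did not pass either. Tap1 and Tap2, which carry peptides to class I molecules, measured 6.25 ± 0.34 and 3.74 ± 0.13 in YFP-positive samples, against 6.79 ± 0.27 and 3.71 ± 0.25 in YFP-negative samples (SD, n = 3 each, adjusted p = 0.29 and 0.959). Of the 8 other genes measured around that transporter limma called 0 (H2-K1 was the 1 with p under 0.05 before adjustment, and the unmoderated model called 0). Cftr, the chloride channel of the C subfamily, lay below the array median on all 6 arrays.

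The YFP-positive arrays differed among themselves in the family. Each of the 4 genes that rose was lowest on YFP-positive replicate 3, the lowest of the YFP-positive arrays for 23 of the 48 members (47.9%, against 40.3% of all genes). It was the highest of them for 15 members (31.3%, against 28.2% of all genes). On that array the endothelial sum was 13.96, against 14.44 and 14.52 on YFP-positive replicates 1 and 2, and the leukocyte sum 13.32, against 11.77 and 11.87. Among these, Abca13 and Abcd2 are named after their values were seen. Abca13, of the A subfamily, measured 2.82, 2.75 and 4.57 in YFP-positive samples, against 2.89, 2.89 and 2.94 in YFP-negative samples, so YFP-positive replicate 3 alone was high. Abcd2, a peroxisomal carrier of very long-chain fatty acids, measured 3.05, 2.71 and 4.10 in YFP-positive and 3.01, 3.12 and 3.88 in YFP-negative samples, and was thus highest in replicate 3 of both populations. The neutrophil marker sum was 13.51, 13.82 and 14.72 on YFP-positive and 12.47, 13.11 and 14.46 on YFP-negative replicates 1, 2 and 3, likewise highest in replicate 3 of both, and its part in these values was not tested. Of the 48 members, 7 spanned over 1 (log2) within a population, namely Abcb1b, Abca13, Abca2, Abcf3, Abcd2, Abcf2 and the called gene Abca1.

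**Figure D4:**
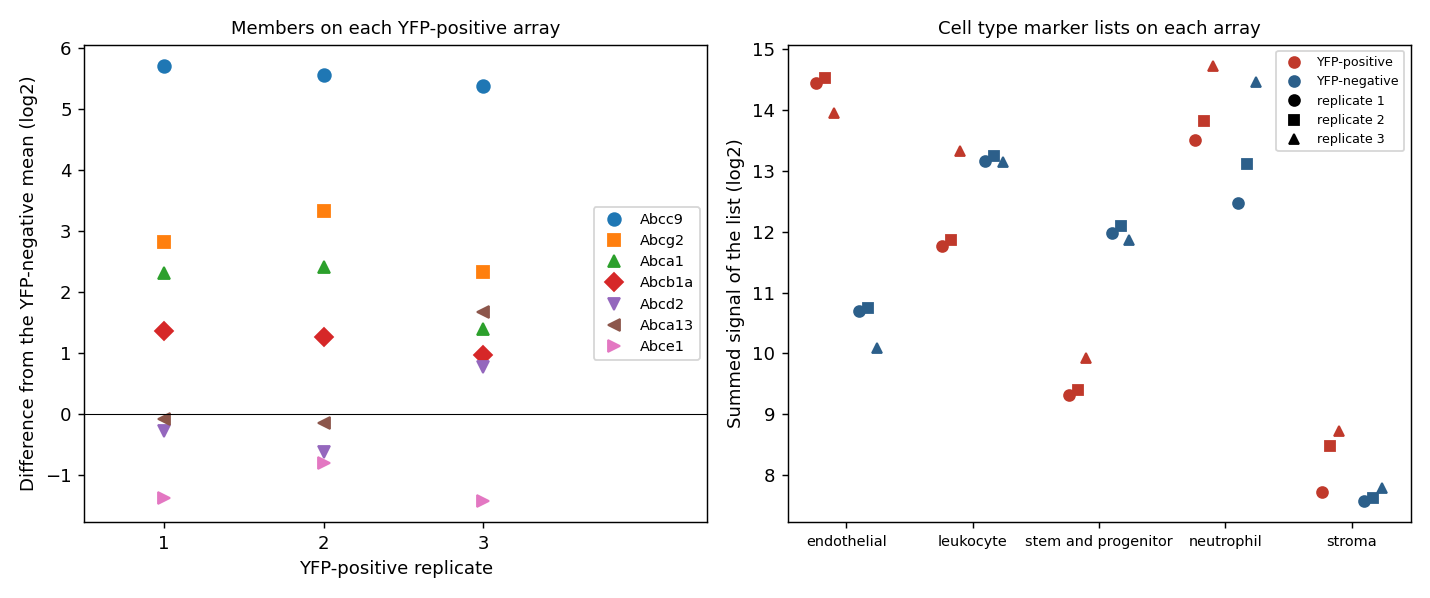
Left, the difference of each YFP-positive array from the YFP-negative mean (log2, y axis) by replicate (x axis) for the called ABC genes, Abcd2 and Abca13. Right, the summed signal (log2, y axis) of 5 marker lists on each array, where YFP-positive replicate 3 is lowest of its group in the endothelial and highest in the leukocyte, stem and progenitor, neutrophil and stroma lists.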

How the data were processed

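The authors hybridised cDNA amplified with Ovation Pico V2 from 500 pg of total RNA, per the labels' protocols, and deposited log2 expression values for 41345 probes on 6 arrays. The submitters' processing notes name Partek. How background was corrected and arrays normalized is not given in the sources used here, and base 2 was read from the values. All RNA was isolated at the same time, per the labels. No detection calls were used, and the number of arrays limits the precision.

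Of 25335 annotated probes 23521 had 1 symbol, and the brightest probe per gene gave 22180 genes. Population was the only term of the fit (limma 3.58.1 in R 4.3.3, lmFit and eBayes, two-sided). The code was also run on simulated independent arrays with known shifts, which checks the code and not the fit to these data. Alternatives were the mean of probes, quantile normalization, a filter on dim genes, no moderation, an intensity trend, the replicate number as a block and each array left out in turn. The genes named were every member at an unadjusted p under 0.05, the 3 largest differences each way, a list of well-described members and up to 3 genes per partner list. Abcc8, Kcnj11, Abca13, Abcb4, Abcg5, Abcg8, some neighbours and some partners and markers are named outside it. Members and lists were chosen with earlier results of these data known. Promoter windows come from RefSeq (GRCm38.p6), where 38 of the 48 members matched by symbol.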

Additional observations from a re-analysis of the deposited data

How the results depend on the processing

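Abcc9 and Abcg2 rose in all 6 fits that left out 1 array, and Abcc9 also in the 6 other alternatives, while Abcg2 lost its call with the unmoderated model. ABC genes called higher numbered 2 to 3 in the fits without 1 array, against 4, and 1 with the unmoderated model. ABC genes called lower, against 1, numbered 0 to 1 without 1 array, and 0 with the unmoderated model, with the intensity trend and with the replicate number as a block (each with 2 lower at an unadjusted p under 0.05). Abce1 had an adjusted p of 0.0613 with the trend and 0.0627 with the block, and Abcb1a of 0.0506 after quantile normalization. With the block Apoe (0.063), Hif1a (0.0554), Scarb1 (0.0815), Eif3b (0.0865) and Kit (0.133) were no longer called either. Kit and Scarb1 also lost their calls after quantile normalization, and Kit and Eif3b with the trend. Over all genes the count, against 1074, was 180 with the unmoderated model, 580 with the block and 430 to 1185 without 1 array. Deviations of same-numbered samples correlated across genes at 0.0985, 0.0806 and 0.167, not all above 0.1, so the numbers were not taken as pairs, although each sample correlated best with its own number. No called gene followed here changed sign. Dim levels limit the folds of Abcb1a and Kcnj8.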

Other observations

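Uptake carriers for organic ions and nucleosides, which bring in many of the substrates that ABC pumps expel, were higher in 2 of 13 measured cases and lower in 0, with a median difference of 0.09. Without YFP-positive replicate 3 the higher ones numbered 3. Slco2a1, the prostaglandin uptake carrier, measured 10.41, 10.52 and 10.27 in YFP-positive samples, against 4.49, 5.27 and 5.13 in YFP-negative samples, 43.3-fold higher (adjusted p = 0.000256). Slc29a1, an equilibrative nucleoside carrier, measured 7.69, 7.82 and 7.29 in YFP-positive against 6.04, 5.88 and 5.92 in YFP-negative samples, 3.14-fold higher (adjusted p = 0.005). Its difference was 1.65 (log2) with the brightest probe and 0.96 with the mean of its probes. For both genes every YFP-positive array lay above every YFP-negative array, as it did for 10.8% of all genes. Both kept their call in each fit that left out 1 array (highest adjusted p = 0.00292 and 0.0304). Slco2b1, another organic anion carrier, measured 4.66, 5.09 and 3.68 in YFP-positive against 3.68, 3.48 and 3.88 in YFP-negative samples and did not pass (adjusted p = 0.342). As with the ABC genes, the endothelial markers moved with the populations and their part was not tested.

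Of 8 measured sensors of foreign compounds and oxygen that are known to act on ABC genes, 2 were higher, 0 lower and 6 did not pass, with a median difference of 0.55. The higher ones numbered 3 without replicate 3 of either population, and 1 without YFP-negative replicate 1. Epas1, a hypoxia-inducible factor of endothelium, measured 9.93, 9.78 and 9.48 in YFP-positive and 3.27, 3.19 and 3.31 in YFP-negative samples (adjusted p = 4.3e-05), where the YFP-negative values lie below the array medians. Hif1a, the broadly expressed factor, measured 9.37, 8.87 and 8.76 in YFP-positive against 7.32, 7.65 and 7.48 in YFP-negative samples, 2.85-fold higher (adjusted p = 0.0126). Leaving out YFP-negative replicate 1 ended that call (0.0551). The Hif1a difference was 1.51 (log2) with the brightest probe and 1.18 with the mean of its probes. Nfe2l2, the oxidant sensor, differed by 0.74 ± 0.18 and did not pass (adjusted p = 0.0835), nor did Ahr, the aryl hydrocarbon receptor (difference 0.36 ± 0.24, adjusted p = 0.558).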
